A study of Mus musculus with 35 samples.

Results

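The 10 genes described here encode enzymes of glycolysis and glucose transporters of male germ cells. They were taken by name, with no threshold on their measured values but with earlier results of these data known, and all 10 were found among the 24411 genes of the count tables of spermatocytes (Spc), round spermatids (RS) and chromatoid bodies (CBs). *Ldhc*, *Pgk2*, *Gapdhs* and *Slc2a3* are taken as the germ cell forms and *Ldha*, *Pgk1*, *Gapdh* and *Slc2a1* as their somatic partners, while *Hk1* and *Pgam2* stand without a partner. The samples came from adult *Smg6*-cKO and control (CTRL) mice of mixed C57Bl/6J and SV129 background, and SMG6 is an endonuclease of nonsense-mediated mRNA decay. The cKO mice were *Smg6(fx/fx);Ngn3Cre+*, with loxP sites around exon 9 and Cre driven by the *Neurogenin 3* promoter, which is active in early postnatal spermatogonia. The controls were littermates without Cre that carried floxed *Smg6* alleles. Polyadenylated RNA of Spc and RS fractions, which were enriched by sedimentation through a BSA gradient, was sequenced in 3 CTRL and 3 cKO libraries per cell type. RNA of CBs, the perinuclear RNA granules of spermatids, was sequenced without removal of ribosomal RNA in 4 CTRL and 3 cKO libraries. These CBs had been captured with an anti-DDX4 antibody. The paper isolated CBs, Spc and RS each from several testes.

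Glycolysis converts glucose into pyruvate in the cytosol, and lactate dehydrogenase interconverts pyruvate and lactate. Spermatocytes and spermatids reside behind the blood-testis barrier and rely largely on lactate from Sertoli cells, whereas glycolysis along the tail supplies ATP to sperm. Because the X chromosome is silenced in meiosis and spermiogenesis needs its own enzymes, several glycolytic steps are carried in later germ cells by testis-specific genes, among them *Pgk2*, an autosomal retrogene of the X-linked *Pgk1*.

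Gene counts summed to 36419197 to 47355837 per library in Spc and RS and to 2705277 to 12103906 in CBs. Levels are given as CPM, the counts of a gene relative to the library total, after TMM scaling (scaled CPM), and adjusted p values are from edgeR's quasi-likelihood test over all genes tested in a comparison, with calls at 0.05. Gene-level *Smg6* itself was not called in cKO, with log2 fold changes (log2FC) of 0.22 in Spc, -0.01 in RS and -0.03 in CBs (edgeR adjusted p = 0.36, 0.97 and 0.91). These counts span all exons and cannot show the loss of exon 9. The CTRL Spc 1 library stood apart, since its 10 late spermatid markers (*Prm1*, *Tnp1* and others) summed to 7162 scaled CPM against 3468 and 3487 in the other CTRL Spc libraries. Germ cell markers (*Ddx4*, *Dazl*, *Tex14*) were present in every library, and their sums were 790 to 1077 scaled CPM in Spc and RS and 336 to 489 in CBs.

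The pairs differ in where they lie in the genome (GRCm38, GENCODE vM21). *Ldha* (chromosome 7, 46841475 to 46855627, plus strand) and *Ldhc* (46861203 to 46878142, plus strand) are neighbours with 5575 bases between them. *Pgk2* lies on chromosome 17 (40207015 to 40208640, minus strand) and *Pgk1* on the X chromosome (106187100 to 106203699, plus strand). *Gapdhs* (chromosome 7, 30729775 to 30743681, minus strand), *Gapdh* (chromosome 6, 125161715 to 125166467, minus strand), *Slc2a3* (chromosome 6, 122727809 to 122801640, minus strand) and *Slc2a1* (chromosome 4, 119108711 to 119137983, plus strand) are not linked in this way. *Hk1* spans 62268855 to 62379908 on the minus strand of chromosome 10, and *Pgam2* spans 5801640 to 5803733 on the minus strand of chromosome 11. *Ldha*, *Pgk1* and *Gapdh* each have 2 annotated pseudogenes whose symbol is that of the gene followed by ps. Copies with other names were not searched for, so that these numbers are lower limits for every member. Gene counts are uncertain to the extent that near-identical copies share reads.

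Promoter stretches of 30 bases are shown for the *Pgk* and *Ldh* pairs, because *Pgk2* arose from *Pgk1* and *Ldhc* lies next to *Ldha*. They come from RefSeq windows reaching from 250 bases before to 50 bases after a transcription start (GRCm38.p6), which held 13 windows for 9 of the 10 genes and no entry for *Slc2a3*. They are written 5′ to 3′ on the strand of the gene, with the letters of a searched motif in capitals, which are a CCAAT box in *Pgk2* and *Pgk1*, a GC box (GGGCGG) in *Ldhc* and a cAMP response element (TGACGTCA) in *Ldha*.
Pgk2, chr17:40208678-40208707, minus strand, motif 86 bases before the start: caggatggagaaCCAATcacagagctggat
Pgk2, chr17:40208644-40208673, minus strand, motif 52 bases before the start: tttcaaattctaCCAATggctattgtgcag
Pgk1, chrX:106187030-106187059, plus strand, motif 58 bases before the start: ttggggcagcggCCAATagcagctttgctc
Ldhc, chr7:46861173-46861202, plus strand, motif 78 bases before the start: tgagcaggcagtGGGCGGggcttgcgtgct
Ldha, chr7:46845774-46845803, plus strand, motif 12 bases before the start: tccgctgggctcccactcTGACGTCAgcgc
The *Ldha* stretch lies inside the annotated span of *Ldha* but in none of its exons, and the other 4 stretches overlap no annotated gene. On either strand, CCAAT was found for 4 genes (*Pgk1*, *Pgk2*, *Pgam2*, *Slc2a1*) and is present in 37.4% of all 32851 windows. GGGCGG was found for 4 genes (*Ldha*, *Ldhc*, *Pgk1*, *Slc2a1*) and in 35.7% of all windows. TGACGTCA was found for *Ldha* alone and in 1.79% of all windows, and TATAAA for *Slc2a1* alone and in 13.6%. ACGTG, the core of the hypoxia response element, was found for 6 genes (*Ldha*, *Pgk1*, *Gapdh*, *Gapdhs*, *Slc2a1*, *Hk1*) and in 19.6% of all windows. On the opposite strand ACGTG reads CACGT, so that the letters CACGTG match on both strands. A match describes these letters only.

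Levels of different genes were compared per kilobase of the most counted protein-coding transcript, a choice made after the counts had been seen. *Ldhc*, the lactate dehydrogenase subunit of sperm, had the highest level per length of the 10 genes in all 6 groups, with 3397 scaled CPM per kilobase in CTRL RS and 2633 in CTRL Spc. In CTRL RS it was followed by *Gapdhs*, the sperm glyceraldehyde phosphate dehydrogenase (2171), *Pgam2*, a phosphoglycerate mutase of muscle and testis (1316), *Pgk2*, the spermatogenic phosphoglycerate kinase (1072), *Hk1*, the hexokinase that opens the pathway (1066), and *Ldha* (748). The values of *Pgk2* and *Hk1* overlapped between libraries, and no other neighbours in this order did. The lowest levels per length in CTRL RS were those of *Slc2a3* (169.8 per kilobase), *Gapdh* (23.5), *Pgk1* (5.93) and *Slc2a1* (0.22). In CTRL Spc the order was different, since *Slc2a3*, which encodes the glucose transporter GLUT3, ranked next to *Ldhc* with 755 scaled CPM per kilobase and overlapped with *Pgam2* (746). *Gapdhs* (333), *Pgk2* (276) and *Hk1* (227) followed *Ldha* (703) there, with overlap between *Gapdhs* and *Pgk2* and between *Pgk2* and *Hk1*. In cKO RS, *Pgam2* (491), *Ldha* (471) and *Slc2a3* (399) came next after *Ldhc* (1792) with overlap between neighbours, and *Pgk2* (274), *Gapdhs* (199) and *Hk1* (155) came after them without overlap. In cKO Spc the order after *Ldhc* (2363) was *Slc2a3* (934), *Ldha* (655), *Pgam2* (607), *Pgk2* (201), *Gapdhs* (98.3) and *Hk1* (91.5), where *Ldha* overlapped with *Pgam2* and *Gapdhs* with *Hk1*. In CBs *Ldhc* led with 371 in CTRL and 225 in cKO, and all neighbours from *Gapdhs* (212) to *Pgk2* (72.1) overlapped in CTRL. With the length of all exons in place of 1 transcript, *Pgam2* ranked before *Slc2a3* in CTRL Spc and before *Slc2a3* and *Ldha* in cKO Spc, and *Pgk2* ranked before *Ldha* and *Slc2a3* in cKO RS. In CBs it placed *Pgk2* before *Hk1*, *Slc2a3* and *Ldha* in CTRL, and *Gapdhs* and *Pgk2* before *Hk1* in cKO. Each germ cell form had a higher mean per length than its partner in every group with a value, although *Pgk2* (19.8) and *Pgk1* (18.3) overlapped in cKO CBs. In CTRL RS the excess was 4.54-fold for *Ldhc* over *Ldha*, 92.4-fold for *Gapdhs* over *Gapdh*, 181-fold for *Pgk2* over *Pgk1* and 771-fold for *Slc2a3* over *Slc2a1*. With the length of all exons these folds were 7.39, 243, 218 and 453, so that the *Gapdh* and *Pgk* pairs changed places. *Ldha* was thus the somatic partner with a level nearest to that of its germ cell form, whereas *Pgk1* and *Slc2a1* were near the lower end of what was counted, with 308 to 688 and 6 to 205 counts per library in Spc and RS.

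**Figure D1:**
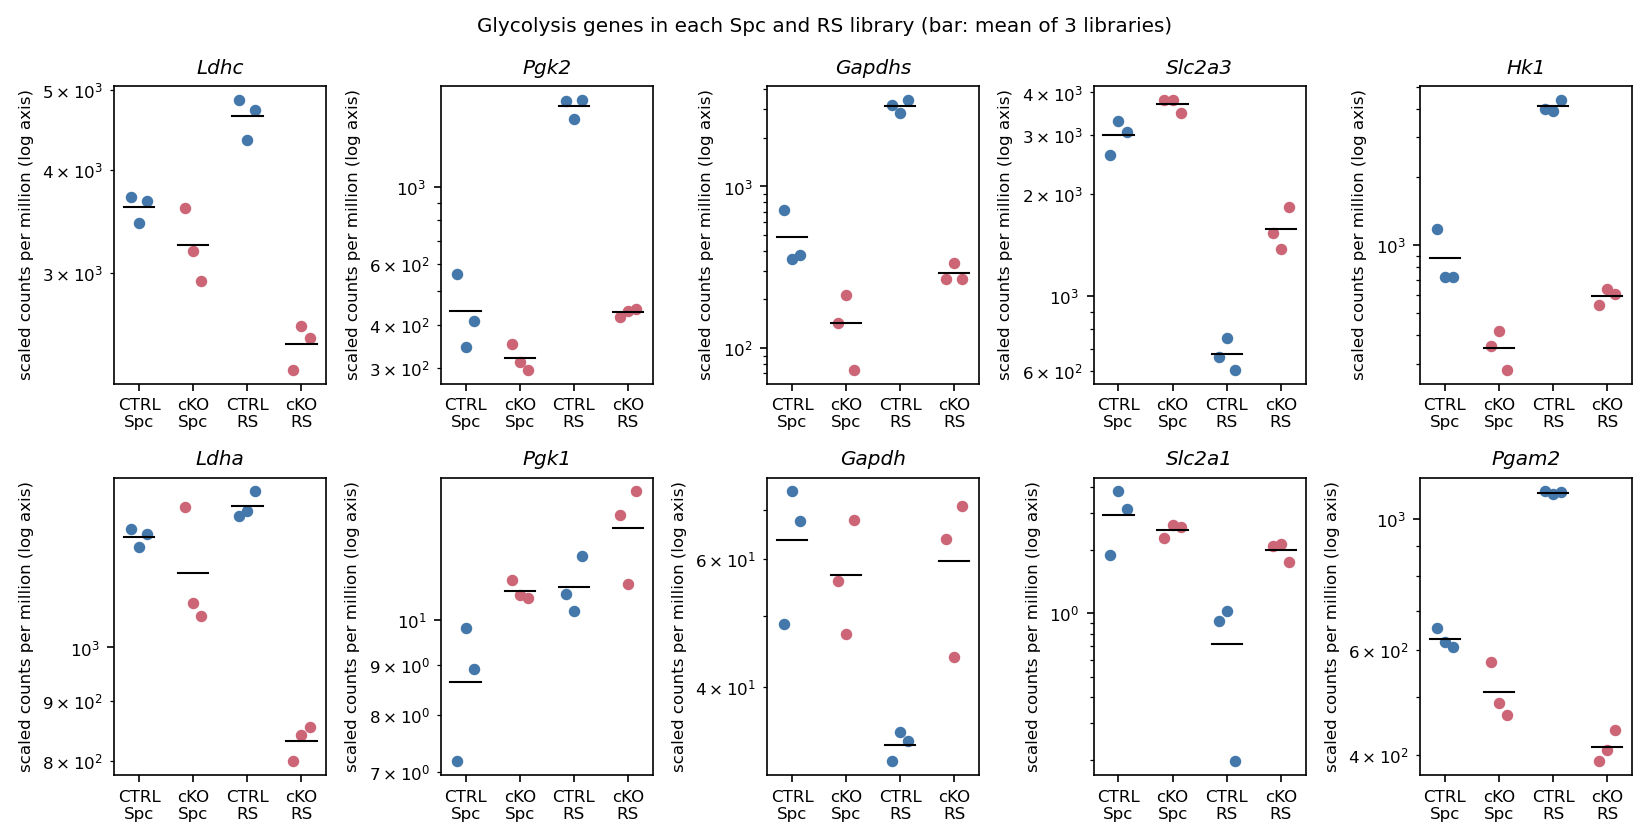
Scaled CPM (log axis) of the 10 genes in each of the 12 Spc and RS libraries, with points for libraries and bars for the mean of 3 libraries. *Pgk2*, *Gapdhs*, *Hk1* and *Pgam2* are highest in the 3 CTRL RS libraries, *Slc2a3* is highest in Spc of both genotypes, and *Slc2a1* stays below 4 in every library.

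The comparison of RS with Spc in CTRL mice sets enriched cell fractions side by side, and the paper reports that neither fraction was pure. *Gapdhs*, *Hk1* and *Pgk2* were several-fold higher in RS, *Pgam2* and *Ldhc* were moderately higher, and *Slc2a3*, *Slc2a1* and *Gapdh* were lower. Of the 10 genes, 5 were higher in RS, where 38.0% of all 18171 genes tested were, and 3 were lower, where 34.7% were. Their median log2 difference was 0.35 and that of all genes 0.05. Among the germ cell forms 3 of 4 were higher and 1 was lower, and among the somatic forms none was higher and 2 of 4 were lower (*Gapdh* and *Slc2a1*), with *Ldha* and *Pgk1* not called by edgeR (unadjusted p = 0.27 and 0.043) and *Pgk1* called higher by DESeq2. Scaling by library size alone moved the median of all genes to -0.54, so that differences relative to this median are also given where the sign changed. A change of scaling shifts all genes nearly alike, so that these relative values agree by construction and cannot show which scaling is right.

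*Gapdhs* measured 358, 376 and 719 scaled CPM in the CTRL Spc libraries and 2861, 3177 and 3450.4 in CTRL RS, from the lowest to the highest. All RS libraries lay above all Spc libraries, and the highest Spc value was that of CTRL Spc 1. The log2 difference was 2.71 (SE 0.36, edgeR adjusted p = 4.02e-05), a 6.52-fold higher level, and it was 3.11 without CTRL Spc 1. *Hk1* measured 723, 726 and 1177 scaled CPM in CTRL Spc and 3899, 4014 and 4397 in CTRL RS, again without overlap and with CTRL Spc 1 as the highest Spc library. Its log2 difference was 2.23 (SE 0.19, adjusted p = 2.18e-06). *Pgk2* rose from 439 ± 111 to 1707 ± 121 scaled CPM (mean ± SD, n = 3 each), a log2 difference of 1.96 (SE 0.15, adjusted p = 1.02e-06) or 3.89-fold. *Pgam2* rose from 627 ± 23.9 to 1106 ± 7.22 scaled CPM (log2 difference 0.82, SE 0.08, adjusted p = 4.31e-06). *Ldhc* went from 3607 ± 138 to 4654 ± 270 scaled CPM, with a log2 difference of 0.37 (SE 0.08, adjusted p = 0.0014) that turned to -0.22 when libraries were scaled by size alone, while relative to the median of all genes it was 0.32 under both scalings.

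*Slc2a3* measured 2611, 3049.8 and 3302 scaled CPM in CTRL Spc and 605, 661 and 751 in CTRL RS. Every RS library was below every Spc library, with a log2 difference of -2.15 (SE 0.12, edgeR adjusted p = 2.54e-07). *Slc2a3*, unlike the other germ cell forms, was thus lower in the RS than in the Spc fraction. Its somatic partner *Slc2a1*, which encodes the transporter GLUT1, fell as well, from 2.95 ± 0.98 to 0.72 ± 0.45 scaled CPM (log2 difference -2.03, SE 0.44, adjusted p = 0.0014). *Gapdh* fell from 63.5 ± 13.2 to 33.4 ± 1.57 scaled CPM (log2 difference -0.93, SE 0.20, adjusted p = 0.0012). *Ldha*, the lactate dehydrogenase subunit of muscle, differed by 0.09 (SE 0.08, adjusted p = 0.31), and by -0.50 with library size alone and -0.04 in a fit of these 6 libraries only. Relative to the median of all genes *Ldha* was at 0.04 under both scalings. *Pgk1* differed by 0.32 (SE 0.14, adjusted p = 0.058), with adjusted p = 0.032 in DESeq2 and 0.029 without CTRL Spc 2, and by -0.27 with library size alone, while relative to the median of all genes it was 0.27 under both scalings. Spermatid and late spermatid markers moved with these results, as 10 of 10 genes of both lists were higher in CTRL RS, and the summed late spermatid level was 28411 to 38070 scaled CPM in CTRL RS and 3468 to 7162 in CTRL Spc. Leydig cell markers were lower in CTRL RS for 8 of 8 genes (11.3 to 11.99 against 131 to 437), Sertoli cell markers for 10 of 10 (70.7 to 84.5 against 351 to 947) and spermatocyte markers for 8 of 12, with 2 higher. Of the other lists, 4 of 5 erythroid genes were higher and 1 lower, 4 of 12 macrophage genes higher and 1 lower, and 4 of 7 peritubular myoid and endothelial genes higher. The part of these markers in the stage differences was not tested. In such bulk fractions, fewer cells of a type and less RNA per cell cannot be told apart.

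**Figure D2:**
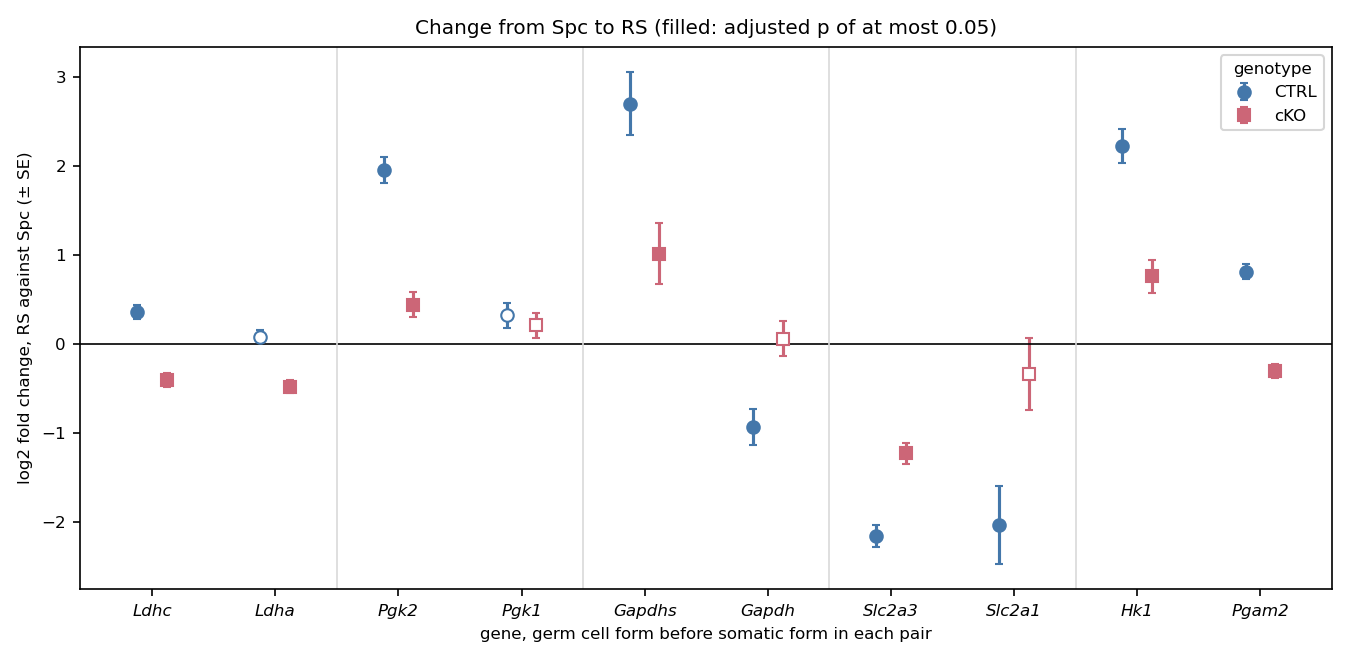
Log2 fold change of RS against Spc (± SE of the fit) in CTRL and cKO mice for each gene, with filled symbols where the adjusted p was at most 0.05. *Gapdhs*, *Hk1* and *Pgk2* differed by 2.71, 2.23 and 1.96 in CTRL and by 1.02, 0.76 and 0.45 in cKO. *Ldhc*, 0.37 in CTRL, is at -0.22 there when libraries are scaled by size alone, which puts the median of all genes at -0.54. It is 0.32 above the median under both scalings, which follows from the shift of all genes.

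In RS, the loss of *Smg6* went with lower levels of *Gapdhs*, *Hk1*, *Pgk2*, *Pgam2*, *Ldhc* and *Ldha* and with higher levels of *Slc2a3*, *Slc2a1* and *Gapdh*. Thus 6 of the 10 genes were lower, where 34.3% of all 17492 genes tested were, and 3 were higher, where 38.4% were. The median log2FC was -0.78 for the 10 genes and 0.11 for all genes. Of the germ cell forms 3 of 4 were lower and 1 was higher, and of the somatic forms 1 was lower, 2 were higher and *Pgk1* was not called. At the study's threshold of 1.5 on the log2 scale 3 genes were lower (*Gapdhs*, *Hk1*, *Pgk2*) and none was higher. With library size alone the median of all genes was 0.73, and 5 genes were then lower and 4 higher.

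*Gapdhs* measured 2911, 2628 and 3167 scaled CPM in CTRL RS 1, 2 and 3 and 249, 309 and 246 in cKO RS 1, 2 and 3. The groups were far apart, with a log2FC of -3.43 (SE 0.12, edgeR adjusted p = 2.80e-07) or a 10.8-fold lower level in cKO. *Hk1* measured 3678, 3582 and 4036 scaled CPM in the CTRL and 503, 592 and 566 in the cKO libraries. This was a 6.80-fold lower level without overlap (log2FC -2.77, SE 0.08, adjusted p = 2.15e-07). *Pgk2* measured 1622, 1440.1 and 1637 scaled CPM in CTRL and 391, 407 and 413 in cKO (log2FC -1.96, SE 0.07, adjusted p = 3.27e-07). Each cKO value of *Pgk2* was below every CTRL value, and the cKO values lay close together.

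*Pgam2* fell from 1015 ± 5.46 to 382 ± 24.04 scaled CPM in RS (n = 3 each; log2FC -1.41, SE 0.06, edgeR adjusted p = 7.56e-07). *Ldhc* measured 4467, 3999 and 4347 scaled CPM in CTRL RS and 2115, 2388 and 2316 in cKO RS, without overlap. Its log2FC was -0.91 (SE 0.07, adjusted p = 1.39e-05), a 1.88-fold lower level. *Ldha* moved the same way as *Ldhc*, from 1211 ± 31.7 to 771 ± 27.1 scaled CPM (log2FC -0.65, SE 0.06, adjusted p = 2.31e-05). With library size alone *Ldha* changed by -0.03 (adjusted p = 0.50), while relative to the median of all genes its change was -0.76 under both scalings.

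*Slc2a3* was the germ cell form that was higher in cKO RS, where the libraries measured 1422, 1273 and 1697 scaled CPM against 606, 690.2 and 555 in CTRL. All cKO libraries were above all CTRL libraries, and the log2FC was 1.25 (SE 0.12, edgeR adjusted p = 4.20e-05) or 2.37-fold. *Gapdh* measured 29.0, 31.9 and 31.0 scaled CPM in CTRL and 59.1, 40.7 and 65.6 in cKO (log2FC 0.85, SE 0.17, adjusted p = 0.0021). The cKO values of *Gapdh* spread more widely than those of CTRL but did not overlap with them. *Slc2a1* had 31, 32 and 6 counts in CTRL RS and 99, 98 and 89 in cKO RS, a log2FC of 1.48 (SE 0.49, adjusted p = 0.025) that was not called without cKO RS 1 (adjusted p = 0.060). *Pgk1* overlapped between genotypes with 9.39 to 10.7 scaled CPM in CTRL and 10.1 to 12.6 in cKO (log2FC 0.21, SE 0.14, adjusted p = 0.20). It was called higher without cKO RS 2 (0.34, adjusted p = 0.046) and with library size alone (0.83). Relative to the median of all genes its change was 0.10 with TMM and 0.11 with library size alone.

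**Figure D3:**
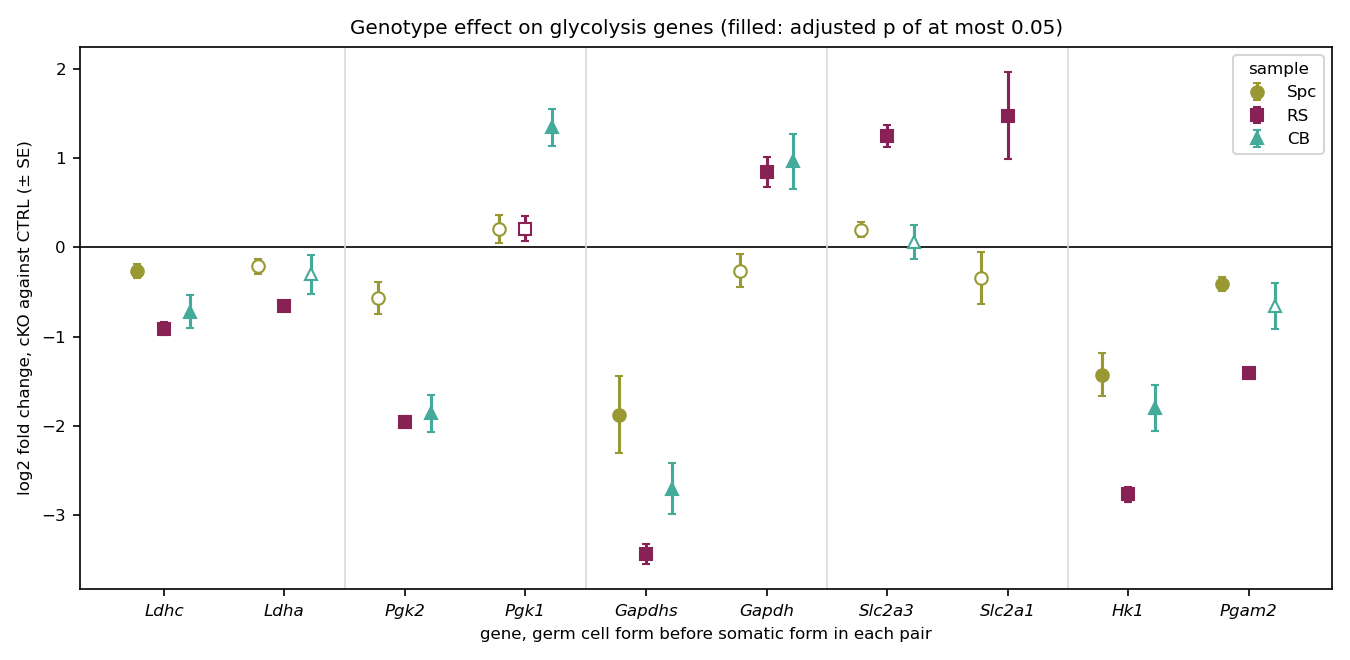
Log2 fold change of cKO against CTRL (± SE of the fit) for each gene in Spc, RS and CBs, with filled symbols where the adjusted p was at most 0.05. In RS, *Gapdhs*, *Hk1* and *Pgk2* were at -3.43, -2.77 and -1.96 while *Slc2a3*, *Slc2a1* and *Gapdh* were at 1.25, 1.48 and 0.85, and *Slc2a1* has no value in CBs.

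Markers of other cells moved with genotype in RS. The late spermatid list was lower in cKO RS for 10 of 10 genes, with sums of 1716 to 1839 scaled CPM against 28411 to 38070 in CTRL, and the spermatid list was lower for 10 of 10, with sums of 1084 to 1369 against 3771 to 3848. The spermatocyte list was higher for 7 of 12 genes and lower for 3, with sums of 1489 to 1613 against 1214 to 1249. The spermatogonia list was higher for 6 of 8 genes and lower for 1, with sums of 77.1 to 123.4 against 43.6 to 54.9. Of the somatic lists, all 12 macrophage genes, 7 of 7 tested Leydig cell genes, 9 of 9 tested Sertoli cell genes and 4 of 5 erythroid genes were higher in cKO RS, and of the 7 peritubular myoid and endothelial genes none was higher by edgeR and 1 was lower (sums of 13.1 to 15.1 against 15.2 to 17.6). Macrophage markers summed to 252 to 411 scaled CPM in cKO and 34.5 to 53.6 in CTRL, Leydig cell markers to 35.9 to 359 and 11.3 to 11.99, Sertoli cell markers to 109 to 303 and 70.7 to 84.5, and erythroid markers to 67.7 to 249.5 and 22.5 to 26.2. Of the cKO libraries, cKO RS 2 had the lowest of each of these sums. It also had the lowest cKO values of *Gapdh*, *Pgk1* and *Slc2a3*, but not of *Slc2a1*. No gene of these lists was at 0 in every library of a group. The part of these markers in the changes of the glycolysis genes was not tested.

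In Spc, *Gapdhs* and *Hk1* were several-fold lower in cKO, *Pgam2* and *Ldhc* were slightly lower, and none of the 10 genes was called higher. The 4 genes called lower were *Gapdhs*, *Hk1*, *Pgam2* and *Ldhc*, with 14.1% of all 17321 genes lower and 14.0% higher. The median was -0.30 for the 10 genes and -0.01 for all genes. Of the germ cell forms 2 of 4 were lower, and of the somatic forms none of 4 was called by edgeR or DESeq2, and 1 of them (*Ldha*, lower) passed 0.05 in edgeR before adjustment. No member was called higher by either tool, and none passed 0.05 in that direction in edgeR before adjustment.

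*Gapdhs* measured 824, 400.3 and 421 scaled CPM in CTRL Spc 1, 2 and 3 and 145, 227 and 77.2 in cKO Spc 1, 2 and 3. The groups did not overlap, yet both were wide, and the log2FC of -1.87 (SE 0.43, edgeR adjusted p = 0.021) became -1.44 without CTRL Spc 1 (adjusted p = 0.039) and lost its call without cKO Spc 1 (-1.84, adjusted p = 0.084). *Hk1* measured 1347, 812 and 808 scaled CPM in CTRL and 364, 445 and 297 in cKO, with a log2FC of -1.42 (SE 0.24, adjusted p = 0.0079) and of -1.12 without CTRL Spc 1 (adjusted p = 0.0055). *Pgam2* fell from 707 ± 36.6 to 532 ± 47.5 scaled CPM (log2FC -0.41, SE 0.08, adjusted p = 0.014), with adjusted p = 0.060 without cKO Spc 3. For *Ldhc* the levels were 4066 ± 197 and 3380.2 ± 289 scaled CPM (log2FC -0.27, SE 0.08, adjusted p = 0.043). This small difference lost its call without CTRL Spc 1, 2 or 3 (adjusted p = 0.12, 0.058 and 0.11), without cKO Spc 2 or 3 (0.11 and 0.17), in DESeq2 (0.059) and with transcript counts summed per gene (0.057).

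*Pgk2* in Spc measured 643, 386 and 458 scaled CPM in CTRL and 358, 333 and 313 in cKO. The cKO libraries lay below all CTRL libraries, but not in the joint scaling, where cKO Spc 1 (351) was above CTRL Spc 2 (346). The log2FC was -0.57 (SE 0.18) with an edgeR adjusted p of 0.051. The adjusted p was under 0.05 in DESeq2 (0.034), with library size alone (0.035) and without a filter on low counts (0.047). It was also under 0.05 without CTRL Spc 2 (0.025) and with a block for replicate number (0.040). Without CTRL Spc 1 the log2FC was -0.32 (adjusted p = 0.059). *Slc2a3* measured 3364 ± 352 and 3865 ± 182 scaled CPM in CTRL and cKO and overlapped (log2FC 0.20, SE 0.09, edgeR adjusted p = 0.12). The somatic forms differed by -0.21 for *Ldha* (adjusted p = 0.087), 0.20 for *Pgk1* (0.36), -0.26 for *Gapdh* (0.31) and -0.34 for *Slc2a1* (0.40), and *Ldha* was called lower without cKO Spc 1 (-0.28, adjusted p = 0.038). Late spermatid markers were lower in cKO Spc for 10 of 10 genes, with sums of 363 to 1267 scaled CPM against 3468 to 7162 in CTRL. Sertoli cell markers were lower for 8 of 10, with 202 to 293 against 351 to 947, and macrophage markers were higher for 10 of 12, with 56.1 to 83.7 against 37.9 to 44.8. Leydig cell markers summed to 615 to 1260.3 in cKO Spc against 131 to 437 in CTRL, with 2 of 8 genes higher, and erythroid markers to 1.58 to 3.40 against 10.9 to 20.8, with 1 of 4 tested genes lower. Spermatocyte markers summed to 3014 to 3534 in cKO Spc against 2459 to 2821 in CTRL, with 3 of 12 genes higher and 1 lower, and spermatid markers to 572 to 879 against 846 to 1366, with 2 of 10 lower. Their part in the Spc results was not tested.

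**Figure D4:**
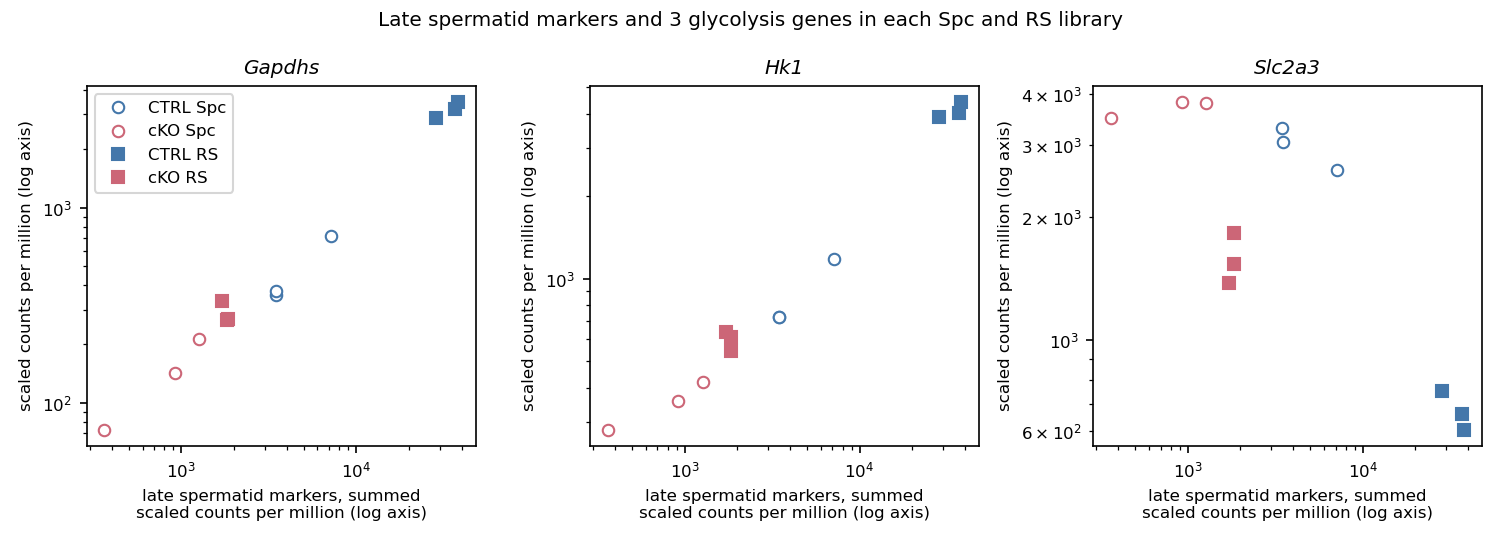
Scaled CPM of *Gapdhs*, *Hk1* and *Slc2a3* against the summed scaled CPM of 10 late spermatid markers in each Spc and RS library (both axes log). *Gapdhs* and *Hk1* are high where the marker sum is high, from cKO Spc with 363 to 1267 up to CTRL RS with 28411 to 38070, and *Slc2a3* is lowest in CTRL RS. The other genes are not shown. In cKO RS, with a marker sum of 1716 to 1839, *Ldhc*, *Ldha* and *Pgam2* were lower than in cKO Spc and *Pgk2* was higher. *Pgk1*, *Gapdh* and *Slc2a1* were not called there. The relation to the marker sum was not tested.

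In CBs, *Gapdhs*, *Pgk2*, *Hk1* and *Ldhc* transcripts were less abundant in cKO and those of *Pgk1* and *Gapdh* more abundant. With *Slc2a1* too low to be tested (2 to 14 counts), 4 of 9 genes were lower, where 18.4% of all 14051 genes tested were, and 2 were higher, where 18.1% were. The median was -0.66 for the 9 genes and 0.07 for all genes, and the latter was -0.08 with library size alone. Germ cell forms made up 3 of the 4 lower genes, and both higher genes were somatic forms.

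*Pgk2* measured 90.0, 95.7, 130.3 and 143 scaled CPM in CTRL CB A to D and 31.5, 31.3 and 32.0 in cKO CB A to C, where the letters only name the libraries. The log2FC was -1.86 (SE 0.20, edgeR adjusted p = 5.52e-05) without overlap. *Pgk1* measured 11.1, 10.9, 13.5 and 17.0 scaled CPM in the CTRL libraries and 36.0, 29.5 and 35.001 in the cKO libraries. It was the gene of this set that rose most in CBs, by 1.35 on the log2 scale (SE 0.21, adjusted p = 0.00038) or 2.54-fold, and it did not overlap between genotypes. *Gapdhs* measured 272, 231, 311 and 419.5 scaled CPM in CTRL and 49.2, 27.2 and 63.2 in cKO (log2FC -2.70, SE 0.29, adjusted p = 4.49e-05). *Hk1* fell from 564.5 ± 133 (n = 4) to 162 ± 56.1 scaled CPM (n = 3), with a log2FC of -1.80 (SE 0.26, adjusted p = 0.00027). *Ldhc* fell from 508 ± 82.4 to 308 ± 24.4 (log2FC -0.72, SE 0.18, adjusted p = 0.0084).

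*Gapdh* had 31 to 121 counts in CTRL and 27 to 103 in cKO CB libraries, and its log2FC of 0.97 (SE 0.31, edgeR adjusted p = 0.027) came with overlap between the groups. It was not called without CTRL CB A (adjusted p = 0.072), CTRL CB B (0.070), cKO CB B (0.065) or cKO CB C (0.20), nor with library size alone (0.056). *Pgam2* overlapped and changed by -0.66 (adjusted p = 0.057), and it was called lower in DESeq2 (adjusted p = 0.029), with library size alone (0.024), without a filter on low counts (0.012), and without CTRL CB B (0.035) or cKO CB C (0.0036). *Ldha* changed by -0.30 (adjusted p = 0.31, or 0.038 without cKO CB C). *Slc2a3* measured 435 ± 37.0 and 453 ± 101 scaled CPM in CTRL and cKO (log2FC 0.06, SE 0.19, adjusted p = 0.84), which turned to -0.07 with library size alone, while relative to the median of all genes it was -0.0094 with TMM and 0.0071 with library size alone. Late spermatid markers were lower in cKO CBs for 10 of 10 genes, with 492 to 563 scaled CPM against 2309 to 4885, and spermatid markers for 9 of 10. Leydig cell markers were higher for 7 of 7 tested genes, macrophage markers for 3 of 5, Sertoli cell markers for 3 of 6 and spermatogonia markers for 3 of 5, and their part in the CB results was not tested. The cKO CB A library stood apart, since its macrophage (16.6) and Leydig cell (48.2) sums lay within the CTRL ranges of 13.3 to 21.9 and 17.8 to 68.0, whereas cKO CB B and C had macrophage sums of 87.6 and 90.2 and Leydig cell sums of 306 and 466. *Gapdh* was 7.14 scaled CPM in cKO CB A, within the CTRL range of 5.33 to 8.77, and 14.7 and 18.4 in cKO CB B and C. *Pgk1* was 36.0 in cKO CB A, as high as in the other cKO libraries.

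The change from Spc to RS was then compared between genotypes, in 1 fit of the 12 Spc and RS libraries. In cKO mice 3 genes were higher in RS than in Spc (*Pgk2*, *Gapdhs*, *Hk1*), where 22.8% of all genes were, and 4 were lower (*Ldhc*, *Ldha*, *Slc2a3*, *Pgam2*), where 26.6% were. *Gapdhs* rose from 143 ± 70.4 to 290 ± 38.7 scaled CPM (log2 difference 1.02, SE 0.34, edgeR adjusted p = 0.028), and the call was lost without cKO Spc 1 (adjusted p = 0.076), cKO Spc 3 (0.065) or cKO RS 2 (0.078). *Pgk2* rose from 320.3 ± 27.99 to 436 ± 11.9 (0.45, SE 0.14, adjusted p = 0.023), with the call lost without cKO Spc 2 (0.054), cKO Spc 3 (0.073) or cKO RS 2 (0.052), and *Hk1* rose from 353 ± 69.1 to 598 ± 49.8 (0.76, SE 0.19, adjusted p = 0.0057). *Ldhc* fell by 0.40, *Ldha* by 0.48, *Pgam2* by 0.30 and *Slc2a3* by 1.23 on the log2 scale (adjusted p = 0.0019, 0.00047, 0.0080 and 1.91e-05), and the value of *Pgam2* had an adjusted p of 0.058 in DESeq2. *Pgk1* (0.21), *Gapdh* (0.06) and *Slc2a1* (-0.33) were not called. In the same comparison 8 of 10 spermatid and 4 of 10 late spermatid markers, 12 of 12 macrophage and 5 of 5 erythroid markers were higher in RS, and 7 of 8 Leydig cell and 8 of 12 spermatocyte markers were lower. Their part in the result was not tested. The RS and Spc libraries of a genotype also enter the genotype comparisons above, so that these values are not independent of them.

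The interaction, that is the genotype effect in RS minus that in Spc within this joint fit, was called for 9 of the 10 genes. It can differ from the difference of the genotype effects given above, which came from separate fits of Spc and RS. It was negative for 6, where 24.1% of all 18171 genes were, and positive for 3, where 19.0% were. The size was -1.69 for *Gapdhs* (SE 0.48, edgeR adjusted p = 0.016), -1.51 for *Pgk2* (SE 0.20, 0.00048), -1.47 for *Hk1* (SE 0.26, 0.0017), -1.12 for *Pgam2* (SE 0.11, 0.00016) and -0.77 for *Ldhc* (SE 0.11, 0.00074). *Ldha*, a somatic form, also had a negative value of -0.56 (SE 0.11, adjusted p = 0.0024), which was 0.15 with library size alone, while relative to the median of all genes it was -0.43 under both scalings. Positive values were found for *Gapdh* (0.99, SE 0.28, adjusted p = 0.015), *Slc2a3* (0.93, SE 0.17, 0.0017) and *Slc2a1* (1.70, SE 0.59, 0.038). With a block for replicate number, the *Slc2a1* value had an edgeR adjusted p of 0.052. The interaction of *Slc2a1* had adjusted p values of 0.0527 to 0.0905 when any of 7 libraries was left out (CTRL Spc 2 and 3, cKO Spc 1, 2 and 3, cKO RS 1 and 2). That of *Gapdhs* was -0.98 (adjusted p = 0.095) and that of *Ldhc* -0.06 (0.56) with library size alone, under which the median over all genes was 0.58 and not -0.13. *Pgk1* had no call (-0.11, SE 0.20, adjusted p = 0.67), and its value was 0.60 with library size alone (adjusted p = 0.037) and 0.0067 without CTRL Spc 1, while relative to the median of all genes it was 0.02 with TMM and 0.03 with library size alone. Among the marker lists, the interaction was positive for 10 of 10 Sertoli cell, 6 of 12 macrophage, 4 of 5 erythroid and 4 of 12 spermatocyte genes, and negative for 8 of 10 spermatid, 4 of 10 late spermatid and 2 of 12 spermatocyte genes. Their part in the interaction of the glycolysis genes was not tested.

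Ratios of a germ cell form to its partner do not depend on the scaling between libraries. The log2 ratio of *Gapdhs* to *Gapdh* counts was 6.65, 6.37 and 6.67 in CTRL RS 1 to 3 and 2.08, 2.93 and 1.91 in cKO RS 1 to 3. The ratio was thus lower by 4.26 (SE 0.33) or 19.1-fold in cKO RS, without overlap. The log2 ratio of *Pgk2* to *Pgk1* was 7.38, 7.26 and 7.26 in CTRL RS and 5.04, 5.33 and 5.04 in cKO RS, a difference of -2.16 (SE 0.11). For *Ldhc* to *Ldha* the ratio was 1.82 ± 0.09 in CTRL and 1.56 ± 0.05 in cKO RS (SD, n = 3 each), a difference of -0.26 that was small but without overlap. For *Slc2a3* to *Slc2a1* the groups overlapped, with 9.46, 9.49 and 11.5 in CTRL RS and 9.51, 9.32 and 10.02 in cKO RS, and the difference of -0.52 was 0.15 without CTRL RS 3, whose *Slc2a1* count was 6.

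In Spc and CBs the ratios of 2 of the 4 pairs were lower in cKO without overlap. In CBs, *Pgk2* exceeded *Pgk1* by 3.01 to 3.26 on the log2 scale in CTRL, whereas the pair was nearly even in cKO with -0.19, 0.09 and -0.13, a difference of -3.19 (SE 0.10). The *Gapdhs* to *Gapdh* ratio was 5.42 to 5.57 in CTRL and 2.76, 0.87 and 1.78 in cKO CBs, a difference of -3.67 (SE 0.55). In Spc the differences were -0.75 for the *Pgk* pair and -1.66 for the *Gapdh* pair, of which the former was -0.43 without CTRL Spc 1 and the latter -1.16. From Spc to RS the CTRL ratios were higher by 3.69 (*Gapdhs* to *Gapdh*), 1.65 (*Pgk2* to *Pgk1*) and 0.28 (*Ldhc* to *Ldha*), all without overlap, and in cKO by 1.09, 0.24 and 0.07, of which the *Pgk* pair alone did not overlap. The *Slc2a3* to *Slc2a1* ratio differed by -0.90 from Spc to RS in cKO without overlap and overlapped in CTRL (0.11). By an exact two-sided permutation test over libraries, 3 against 3 libraries cannot give a p below 0.10 and 4 against 3 none below 0.057, and both limits were reached wherever groups did not overlap, so that none of the 20 ratio tests could pass 0.05 after adjustment (smallest adjusted p = 0.17).

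**Figure D5:**
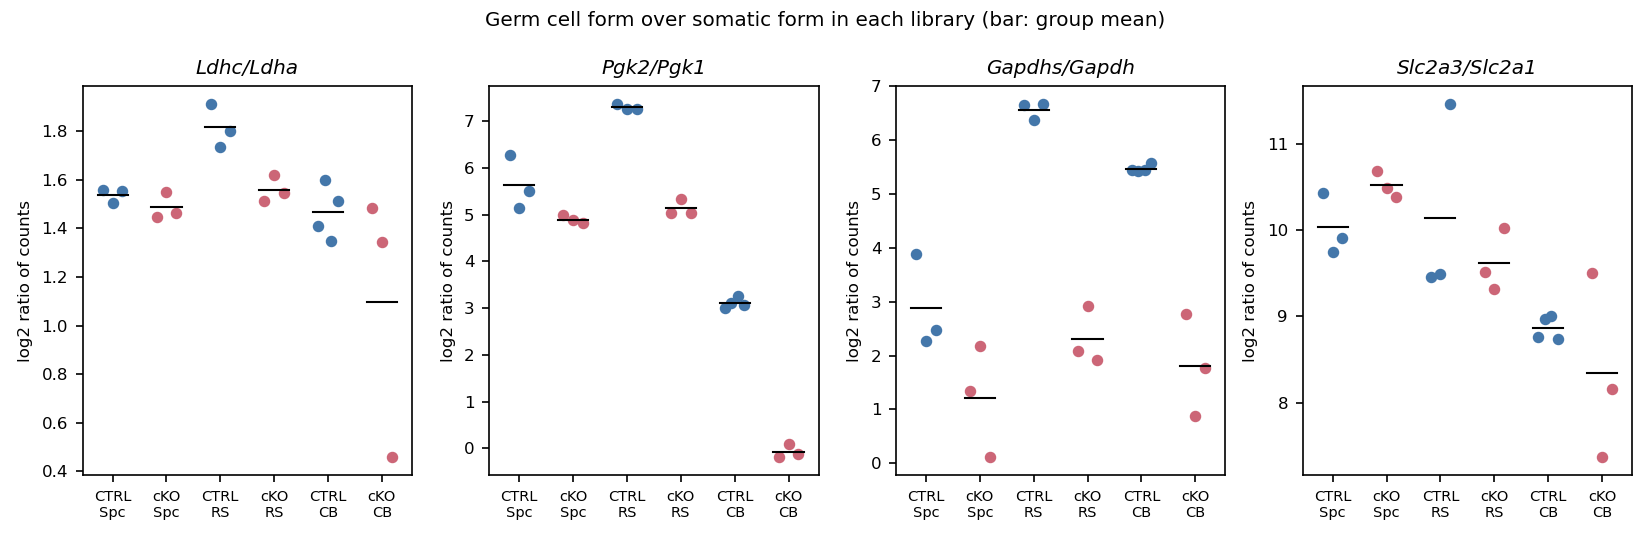
Log2 ratio of the counts of each germ cell form to those of its somatic partner in each library, with points for libraries and bars for group means (n = 4 for CTRL CB, n = 3 otherwise). The *Gapdhs* to *Gapdh* and *Pgk2* to *Pgk1* ratios of cKO lie below those of CTRL in Spc, RS and CBs, and the *Pgk* pair is near 0 in cKO CBs.

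In the table of transcripts, a read that matched several transcripts had been shared equally among them, so the shares of a gene's transcripts carry little information on isoforms. The counts of transcripts called therefore largely repeat the call of the gene. All 20 tested *Hk1* transcripts were lower in cKO in Spc, RS and CBs by edgeR at 0.05, where 12.5%, 36.0% and 18.1% of all transcripts tested were (16.1% were higher in Spc), among them ENSMUST00000116238, which held 22.1% of the *Hk1* transcript counts in both CTRL and cKO RS. All 3 *Gapdhs* transcripts were likewise lower in each comparison. In RS, 11 of 11 *Gapdh* and 8 of 8 *Slc2a3* transcripts were higher, where 38.9% of all transcripts were. In CBs, 2 of 8 *Slc2a3* transcripts were higher, where 17.8% of all were, among them ENSMUST00000165884 (1.15, edgeR adjusted p = 0.0079), which held 8.35% ± 2.30 of the *Slc2a3* counts in CTRL (SD, n = 4) and 14.5% ± 4.24 in cKO (n = 3). Of the 5 tested transcripts annotated to undergo nonsense-mediated decay, that of *Gapdhs*, ENSMUST00000182067, was lower in cKO in Spc, RS and CBs (-1.84, -3.35 and -2.41). Those of *Slc2a3*, ENSMUST00000166135 and ENSMUST00000171541, were higher in RS (1.34 and 1.35) and not called in Spc or CBs. That of *Slc2a1*, ENSMUST00000174372, was higher in RS (1.38, edgeR adjusted p = 0.015) and that of *Pgk1*, ENSMUST00000135949, in CBs (1.55, adjusted p = 0.0011). Each of these calls had the direction of its gene's call.

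The remaining genes of the pathway were counted over a list of 41 other genes of glycolysis and of hexose and lactate transport. In RS 19 of 37 tested genes were lower and 13 higher in cKO, in Spc 10 of 36 were lower and 3 higher, and in CBs 8 of 34 were lower and 7 higher. These shares were 51.4% lower and 35.1% higher in RS, 27.8% and 8.33% in Spc, and 23.5% and 20.6% in CBs, beside 34.3% and 38.4%, 14.1% and 14.0%, and 18.4% and 18.1% of all genes. The median log2FC values were -0.26, 0.0047 and -0.18, beside 0.11, -0.01 and 0.07 for all genes. The lowest in cKO RS were *Gpi1*, the glucose phosphate isomerase, from 868 to 81.8 scaled CPM (-3.41, edgeR adjusted p = 2.46e-07), *Aldoart1*, an aldolase retrogene of spermatids (-2.67, 2.43e-06), and *Pkm*, the pyruvate kinase (-2.59, 8.13e-07). Among the highest were *Slc16a3*, a lactate exporter (2.68, adjusted p = 0.011), and *Pdha1*, the X-linked pyruvate dehydrogenase subunit (2.33, 0.0011), both with mean levels below 4 scaled CPM in both genotypes. In Spc the lowest were *Pfkl*, *Hk2* and *Aldoart1* (-1.77, -1.76 and -1.64), and the 3 that rose were *Pfkfb1*, *Aldoc* and *Aldoa* (1.47, 1.17 and 0.62). *Aldoa*, the aldolase of muscle, was the one of these with a substantial level, rising from 221 to 341 scaled CPM.

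For the interaction of genotype and stage, 18 of 38 tested genes of the list were negative (47.4%, beside 24.1% of all genes) and 7 positive (18.4%, beside 19.0%). Of the genes with a testis form, the values were negative for *Aldoart2* (-1.23, edgeR adjusted p = 0.011), *Pdha2*, the autosomal counterpart of *Pdha1* (-1.21, 0.00041), *Aldoart1* (-1.15, 0.026), *Eno4*, an enolase of sperm (-0.68, 0.0014), and *Ldhal6b* (-0.50, 0.0066). Of their more widely expressed counterparts, named after their values had been seen, *Aldoa* (-1.21, edgeR adjusted p = 0.00024) and *Eno1*, an enolase (-1.12, 0.00060), were negative as well, and *Pdha1* (1.73, 0.026) and *Ldhb* (2.52, 0.012) were positive. *Pgam1*, the more widely expressed partner of *Pgam2*, was at 0.87 (adjusted p = 0.077). The lowest values were those of *Gpi1*, *Tpi1* and *Pkm* (-2.14, -1.46 and -1.44). Among the highest were *Pfkl* and *Hk2* (3.43 and 2.59), and *Slc2a2* also ranked there but had at most 0.259 scaled CPM as the mean of a group, too few counts for its size to be given.

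As a description of patterns, the 3 genes whose log2 levels over the 12 Spc and RS libraries had the highest Pearson correlation with each germ cell form were listed among 13017 genes with a mean count of at least 100. The points share libraries and fall into 4 groups, so that a high coefficient largely shows equal group means. For *Gapdhs* these were *2610318N02Rik*, *Pdzk1* and *Gsg1* (r = 0.9997, 0.9996 and 0.9993), and *Gsg1* measured 3551 ± 260 scaled CPM in CTRL RS and 356 ± 37.7 in cKO RS. For *Pgk2* they included *Ube2n* and *Zfand3* (0.9984 and 0.9965), and for *Ldhc* they were *Cmtm2b*, *Tex40* and *Cox7a2* (0.9957, 0.9945 and 0.9942). For *Slc2a3* they were *Cnot8*, *Phf2* and *Etv3* (0.9959, 0.9957 and 0.9955), and *Phf2* measured 284 ± 35.1 scaled CPM in CTRL Spc, 34.1 ± 3.45 in CTRL RS and 101 ± 14.8 in cKO RS. Within the 10 genes, *Gapdhs* and *Hk1* had the highest coefficient (0.994), *Pgk2* was at 0.975 with *Hk1* and 0.959 with *Gapdhs*, and *Slc2a3* was negative with all 3 (-0.874 with *Hk1*, -0.92 with *Pgk2* and -0.86 with *Gapdhs*).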

How the data were processed

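The gene counts of Spc, RS and CBs were deposited as whole numbers. Per the submitters' processing notes and the study's methods, the authors trimmed reads with cutadapt 2.8, mapped them with STAR (2.7.1a in the notes) to GRCm38 and counted genes and transposable elements with TEtranscripts on the reverse strand. The deposited transcript table holds estimated counts from featureCounts 2.0.1, in which the authors shared a read equally among the transcripts it matched; these were rounded to whole numbers. Genes with at least 10 counts in at least 3 libraries were scaled by TMM and tested in edgeR 4.0.16 (quasi-likelihood, two-sided, R 4.3.3) with Benjamini-Hochberg adjustment over all genes of a comparison. Spc, RS and CBs were fitted separately for genotype, and the 12 Spc and RS libraries together for stage and for the interaction. Ratios were log2 ratios of counts plus 0.5 within a library, compared by an exact two-sided permutation test over libraries. On simulated data with 200 genes changed by 1 on the log2 scale, the Spc, RS and CB fits recovered 31.5%, 50.0% and 37.5% of them (17321, 17492 and 14051 genes simulated), and 7.35%, 9.91% and 3.85% of their calls were genes that had not been changed. The alternatives were DESeq2 1.42.0, library size alone, no filter on low counts, a block for replicate number, a ratio pseudocount of 5, sums of transcript counts per gene and leaving out each library, and, chosen after the data had been seen, levels per length. The named genes were the 10 members, of the pathway list the 3 highest and the 3 lowest called in a comparison and those with a germ cell form, and for each germ cell form the 3 genes with the highest correlation, and 2 genes that this rule names are not reported here. The members and all lists were chosen with earlier results of these data known. Each Spc or RS library is described as 1 biological replicate, and replicate libraries differed by more than sampling noise (chi-square per degree of freedom 9.89 to 82.3). The counts may include PCR duplicates. The authors' own gene-level count table was not used here.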

Additional observations from a re-analysis of the deposited data

Results flagged for a closer look

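In 9 of the 10 genes the genotype effect differed between RS and Spc by the interaction test (edgeR adjusted p of at most 0.05). The difference was negative for 6, where 24.1% of all 18171 genes were, and positive for 3, where 19.0% were. The differences, RS minus Spc on the log2 scale in the joint fit of Spc and RS, were -0.77 for *Ldhc*, -0.56 for *Ldha*, -1.51 for *Pgk2*, -1.69 for *Gapdhs*, -1.47 for *Hk1* and -1.12 for *Pgam2*. They were 0.99 for *Gapdh*, 0.93 for *Slc2a3* and 1.7 for *Slc2a1*. The call of *Slc2a1* was lost when certain single libraries were left out (edgeR adjusted p of 0.0527 to 0.0905). With library size alone *Ldha* was at 0.15, and *Ldha*, *Ldhc* and *Gapdhs* were not called. In CTRL CBs the log2 ratio of *Gapdhs* to *Gapdh* was 5.57 in library D and 5.42 to 5.44 in the other libraries. The gap was 0.862 of the range, above the critical value of Dixon's test for 4 libraries. This was the only one of the 13 CTRL CB values examined that passed it, and chance alone passes about 1 group in 20.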

How the results depend on the processing

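Of 59 log2 values of the 10 genes over the 6 comparisons, 54 kept their direction and their side of 0.05 in DESeq2, 56 without a filter on low counts, 58 with transcript sums and 46 with library size alone. With library size alone, members called numbered 1 higher in CBs (2 with TMM), 4 higher and 5 lower for RS against Spc in CTRL (5 and 3) and 4 positive and 3 negative in the interaction (3 and 6). The median of all genes was then -0.08, -0.54 and 0.58. Shares of all genes called under this scaling are not given, so these counts cannot be read as a result about the members. *Slc2a3* in CBs became -0.070 (-0.029 without a filter). For RS against Spc in CTRL, *Ldhc* became -0.22, *Pgk1* -0.27 and *Ldha* -0.50 (-0.044 in a fit of the compared libraries only). In the interaction, *Ldha* became 0.15 and *Pgk1* 0.60. The *Slc2a3* to *Slc2a1* ratio for RS against Spc in CTRL was -0.22 with a pseudocount of 5. Library size alone moves all genes alike: relative to the median of all genes, *Ldhc* (0.32), *Pgk1* (0.27) and *Ldha* (0.04) for RS against Spc in CTRL and *Ldha* (-0.43) in the interaction were the same to 2 decimals under both scalings. This follows from the common shift and does not show which scaling is right.

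Leaving out 1 library at a time kept 386 of 423 gene values on their side. Members lower in Spc then numbered 2 to 4, members higher in RS 2 to 4, in CBs 1 to 2 higher and 4 to 6 lower, and members higher for RS against Spc in cKO 1 to 3. *Slc2a3* in CBs ranged from -0.074 to 0.23, *Gapdh* for RS against Spc in cKO from -0.060 to 0.24 and *Pgk1* in the interaction from -0.21 to 0.0067. The *Slc2a3* to *Slc2a1* ratio ranged from -0.86 to 0.15 in RS and from -0.56 to 0.45 for RS against Spc in CTRL.

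The same replicate numbers did not deviate together throughout (correlations of 0.157, -0.0908 and 0.255 between genotypes in Spc, -0.098, -0.145 and 0.0984 in RS, and between stages -0.159, -0.143 and -0.181 in CTRL and -0.0201, 0.559 and 0.304 in cKO), so the numbers were not read as pairs. With the replicate block 5 members were lower in Spc, since *Pgk2* was called (-0.54, edgeR adjusted p = 0.040), and *Slc2a1* was not called in the interaction (1.77, adjusted p = 0.052). The block changed no other call. The block was not run in CBs, where the numbers in the column names are not those of the sample titles. The low counts of *Slc2a1* (6 to 205 per library in Spc and RS) limit every value that rests on it.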

Other observations

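In CBs, the genes of the pathway list with the highest log2FC in cKO were *Slc2a4*, a glucose transporter of muscle and fat (1.55, edgeR adjusted p = 0.0049), *Ldhb*, the lactate dehydrogenase subunit of heart (1.39, 0.019), and *Pfkl*, a phosphofructokinase (1.29, 0.015). All had low mean levels in CTRL and cKO, with 1.71 and 4.90, 4.17 and 10.8, and 1.90 and 4.75 scaled CPM, and *Ldhb* overlapped between genotypes. The lowest log2FC were those of *Slc16a7*, a monocarboxylate transporter (-1.86, adjusted p = 0.00028), *Gpi1* (-1.64, 0.00014) and *Aldoart1*, which went from 33.4 to 11.9 scaled CPM (0.00034). For RS against Spc, 17 of 38 tested genes of the list were higher and 12 lower in CTRL, and 11 were higher and 10 lower in cKO, with medians of 0.23 and 0.07. These are 44.7% and 31.6% in CTRL, where 38.0% and 34.7% of all genes were called, and 28.9% and 26.3% in cKO, where 22.8% and 26.6% were. In CTRL the highest were *Gpi1* (2.56), *Aldoart1* (2.28) and *Aldoart2* (2.28), and the lowest were *Slc16a3* (-3.13), *Pfkl* (-2.78) and *Ldhb* (-2.60). In cKO *Pfkfb1* (1.22) and *Aldoart1* (1.13) were among the highest, and the lowest were *Eno3* (-1.81), *Aldoc* (-1.53) and *Pdha2* (-1.31).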
